A study of Mus musculus with 14 samples.

Results

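The genes described here are 33 that are widely used to mark the cells of brain blood vessels, in RNA from the superior colliculus, the midbrain structure that receives axons from the retina. Their symbols were matched to Ensembl gene IDs, and all 33 were found among the 55359 IDs of the count tables. They comprise 24 genes of endothelial cells, in groups of 4 for junctions and adhesion, 7 for transport, 6 for angiogenic signalling, 3 transcription factors and 4 surface or secreted proteins, and 9 genes of mural cells, which are the pericytes and smooth muscle cells that wrap the endothelium. RNA was sequenced in bulk from ICR/CD-1 mice at postnatal day 6, after injection into the eyes at postnatal day 0 to 1 of carbenoxolone (cbx), a blocker of gap junctions, or of saline. There were 4 libraries from the superficial layer after cbx at 50 mM, 3 from the superficial layer after saline, 4 from the deep layer after cbx at 50 mM and 3 from the deep layer after saline. Each library held tissue from 3 brains, and every group, saline included, had its eyes injected with 0.3 to 0.5 µL, so no group is without injection. The cbx was given to the eye and not to the midbrain. The study's question was how the loss of retinal activity before eye opening alters the colliculus.

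Endothelial cells of the brain differ from those of most organs in that tight junctions seal the gaps between them, few vesicles cross them, and dedicated carriers bring in glucose, amino acids and lipids. This blood-brain barrier is induced by Wnt ligands from neural cells and depends on pericytes, which are recruited by PDGF-B from the endothelium. In the first days after birth the vessel bed of the mouse brain is still sprouting from the vessels of the pia, the inner meningeal layer, under the control of VEGF, angiopoietins and Notch.

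Libraries held 32004952 to 48776827 counts, of which 32926 to 66449 fell on the 33 genes, and values are given as CPM, counts relative to library size after scaling with TMM factors. Replicates of a group differed by more than sampling noise in all 18 pairs (chi-square of 7.07 to 45.7 per gene). The labels do not say that libraries of a group came from separate litters or days, so p-values measure the spread between these pooled libraries. Neuronal RNA and the dorsal midbrain factors Pax7, Tfap2b and Pou4f1 were present in all groups, and 7 forebrain and cerebellar markers summed to 12.1 to 20.3 CPM, with Atoh1 at 0 in all 14 libraries. Both libraries of 2 pools stood apart in sex-linked RNA: saline pool 1 had Xist at 1.94 CPM in its superficial and 0.572 CPM in its deep library, where all others had at least 187 CPM, and cbx pool 4 had no count of the Y-linked gene Ddx3y. The treatments differed in these genes too, with overlapping ranges. Xist was at 0.572 to 526 CPM after saline and 262 to 1127 CPM after cbx, and Ddx3y at 30.5 to 70.8 CPM and 0 to 38.6 CPM. The part of sex in the cbx comparisons was not tested. Library 1 of the superficial cbx group had a trend with transcript length that the others lacked, at -0.078 log2 units per doubling against -0.021 to 0.028.

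All 33 genes had enough counts to be tested, among 20330 genes in all. Adjusted p-values below come from edgeR's quasi-likelihood test, adjusted over these 20330 genes by the Benjamini-Hochberg method, and a gene is called changed where this value is under 0.05. Per kilobase of exon, averaged over the 14 libraries, the highest levels were those of Cldn5 (73.1 CPM per kb), Slc7a5 (60.4) and Vtn (56.1), followed by Rgs5 (22.5) and Mfsd2a (21.1). The lowest were Emcn (0.447) and Tagln (0.252). The Ly6c1 locus lies in a family of near-identical genes and Abcb1a and Slco1a4 have close paralogues, so their counts are less certain. Exons of another gene on the opposite strand cover part of 7 of the 33 genes, with shares of 62.4% for Tagln, 16.8% for Sox17 and 10.1% for Abcb1a, and reads of both strands cannot be told apart here because the strand setting of the counting is not given.

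The first question was how the superficial layer differed from the deep one. Most of the vascular genes were higher in the superficial layer: 23 of 33 were higher and 4 lower in cbx pools, and 20 were higher and 3 lower in saline pools. The largest differences were in mural genes, where Vtn was 9.37-fold and Acta2 7.2-fold higher in cbx pools, and 5.45-fold and 5.11-fold higher in saline pools. All 4 junction genes and all 3 transcription factors were higher in both treatments. The barrier transporters Slco1a4 and Mfsd2a went the other way and were lower in the superficial layer, as was Plvap. Of all genes tested, 32.2% were called in cbx pools (18.1% higher, 14.1% lower) and 18.4% in saline pools (9.67% higher, 8.73% lower), so the members were called more often than genes in general (81.8% in cbx and 69.7% in saline pools). The median log2 difference of the members was 0.64 in cbx pools, beside 0.02 over all genes, and 0.60 in saline pools, beside 0.04 over all genes. In tissue RNA, fewer cells of a type and less RNA per cell cannot be told apart for these genes. The cbx and the saline comparison share no library.

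**Figure D1:**
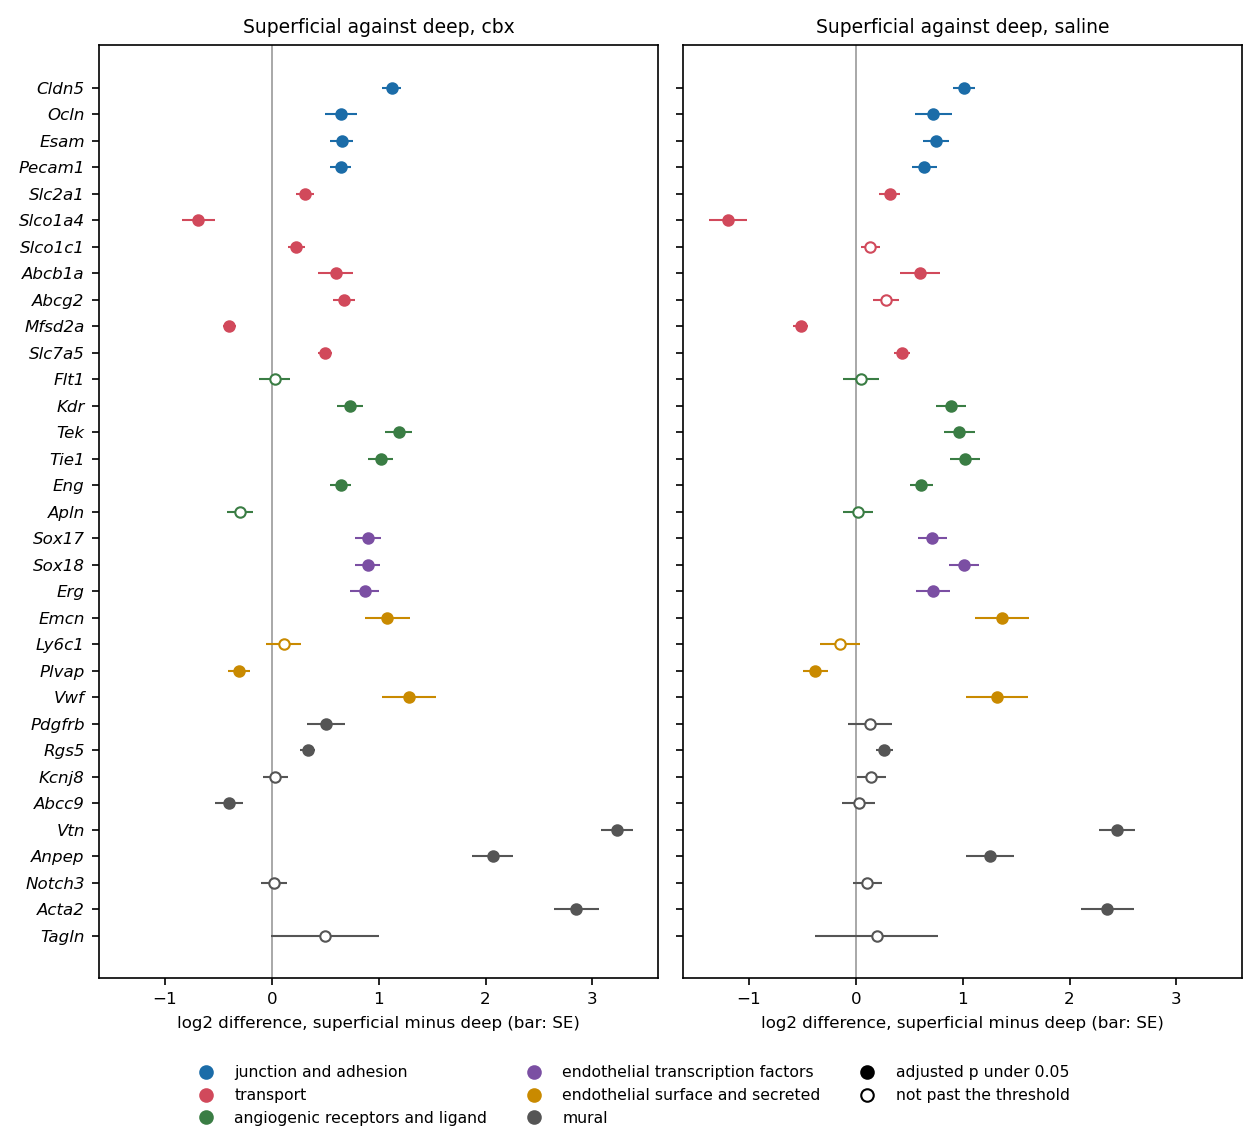
The log2 difference between the superficial and the deep layer for each of the 33 vascular genes, in cbx pools on the left and saline pools on the right, with bars for the standard error and filled points for an adjusted p under 0.05. Most points lie right of 0 in both panels, Vtn and Acta2 lie farthest right, and Slco1a4 and Mfsd2a lie left of 0.

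To show what lies upstream of genes that differ between layers in opposite ways, the promoters of Tie1 (higher in the superficial layer), Slco1a4 (lower) and Vtn (the largest difference) are printed from RefSeq on build GRCm38.p6, each from 250 bases before the start of the gene to 50 bases after it, in the direction of transcription. Capitals mark matches on either strand to CGGAAG or AGGAAG, which are cores bound by ETS factors such as Erg, or to ACAATG, which is bound by Sox factors. Tie1 lies on the minus strand at chr4:118489800-118490099, Slco1a4 on the minus strand at chr6:141856171-141856470 and Vtn on the plus strand at chr11:78498870-78499169.
Tie1: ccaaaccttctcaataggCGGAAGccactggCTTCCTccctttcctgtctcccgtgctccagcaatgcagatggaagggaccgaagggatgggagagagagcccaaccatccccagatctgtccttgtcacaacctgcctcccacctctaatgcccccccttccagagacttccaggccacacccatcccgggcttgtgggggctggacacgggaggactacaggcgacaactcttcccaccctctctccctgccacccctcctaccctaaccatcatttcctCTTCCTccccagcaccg
Slco1a4: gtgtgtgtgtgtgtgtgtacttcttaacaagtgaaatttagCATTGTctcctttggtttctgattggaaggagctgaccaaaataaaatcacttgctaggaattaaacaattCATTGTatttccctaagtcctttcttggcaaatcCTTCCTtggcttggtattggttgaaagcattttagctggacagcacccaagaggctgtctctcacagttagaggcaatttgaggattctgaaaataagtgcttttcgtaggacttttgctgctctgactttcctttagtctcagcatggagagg
Vtn: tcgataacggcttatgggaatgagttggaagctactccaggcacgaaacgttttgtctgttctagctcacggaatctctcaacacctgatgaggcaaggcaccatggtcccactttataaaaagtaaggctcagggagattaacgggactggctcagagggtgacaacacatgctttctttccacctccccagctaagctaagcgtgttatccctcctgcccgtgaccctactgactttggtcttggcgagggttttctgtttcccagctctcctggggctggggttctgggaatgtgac
The Tie1 promoter holds 3 ETS matches, the Slco1a4 promoter 1 ETS and 2 Sox matches, and the Vtn promoter none of these letters. RefSeq promoters were found for 24 of the 33 genes, 30 promoters in all. AGGAAG stood in 13 of these 30 (43.3%) and in 35.4% of all 32851 promoters of the same length, CGGAAG in 1 of 30 (3.33%) against 16.9%, and ACAATG in 3 of 30 (10%) against 12.6%. Among the 26 matches, 1 pair of neighbours overlapped. A match is a description of the letters and not evidence of binding.

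Junction and adhesion genes were higher in the superficial layer without exception. Cldn5 (ENSMUSG00000041378), the main claudin of the tight junctions of brain endothelium, was at 146, 136, 146 and 141 CPM in the superficial layer of cbx pools, against 62.8, 55.3, 61.6 and 81.3 CPM in the deep layer (log2 difference 1.12, SE 0.0876, adjusted p = 7.29e-09). In saline pools Cldn5 was at 129.5, 143 and 141 CPM in the superficial layer, against 64.1, 70.996 and 70.4 CPM in the deep layer (log2 difference 1.01, SE 0.101, adjusted p = 4.31e-07). The layers did not overlap in either treatment, and the lowest superficial library stood well above the highest deep one. Esam, an adhesion molecule of endothelial contacts, gave a log2 difference of 0.66 in cbx pools (adjusted p = 8.50e-05) and was at 29.8, 31.99 and 27.5 CPM in the superficial layer of saline pools, against 17.4, 18.04 and 17.6 CPM in the deep layer (log2 difference 0.75, SE 0.125, adjusted p = 1.84e-04). Pecam1, which marks endothelial contacts in all vessels, gave 0.64 in cbx pools (adjusted p = 4.46e-05) and was at 38.4, 37.7 and 36.1 CPM in the superficial layer of saline pools, against 24.95, 25.02 and 21.98 CPM in the deep layer (log2 difference 0.64, SE 0.115, adjusted p = 3.99e-04). Both were higher in every superficial library. Ocln, a tight junction protein, averaged 8.39 ± 1.52 CPM in the superficial and 5.35 ± 0.842 CPM in the deep layer of cbx pools (SD, n = 4 each; log2 difference 0.65, SE 0.149, adjusted p = 0.00215), and 9.24 ± 1.02 CPM in the superficial and 5.59 ± 0.826 CPM in the deep layer of saline pools (SD, n = 3 each; log2 difference 0.73, SE 0.172, adjusted p = 0.00478).

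Transport genes were divided between the layers. In cbx pools 5 of 7 were higher and 2 lower in the superficial layer, and in saline pools 3 were higher and 2 lower. Slco1a4 (ENSMUSG00000030237), an organic anion carrier of the barrier, was at 6.13, 6.29, 7.97 and 7.29 CPM in the superficial layer of cbx pools, against 10.02, 9.96, 10.99 and 13.8 CPM in the deep layer (log2 difference -0.69, SE 0.152, adjusted p = 0.00153). In saline pools Slco1a4 was at 6.20, 6.14 and 3.95 CPM in the superficial layer, against 11.2, 14.9 and 11.2 CPM in the deep layer (log2 difference -1.20, SE 0.178, adjusted p = 5.67e-05). Every superficial library was below every deep library of its treatment. Mfsd2a (ENSMUSG00000028655), which carries lysophospholipids with omega-3 fatty acids and restrains vesicle traffic across the endothelium, was at 41.3, 39.3, 36.7 and 37.3 CPM in the superficial layer of cbx pools, against 50.4, 49.1, 50.3 and 53.8 CPM in the deep layer (log2 difference -0.40, SE 0.0609, adjusted p = 3.90e-05). In saline pools Mfsd2a was at 39.2, 43.1 and 43.1 CPM in the superficial layer, against 60.2, 59.2 and 60.02 CPM in the deep layer (log2 difference -0.52, SE 0.0702, adjusted p = 2.03e-05), again with no overlap. These differences run against those of Cldn5 in the same libraries. Per CPM of Cldn5, Slco1a4 was at 0.0420 to 0.0547 in superficial cbx and 0.0281 to 0.0478 in superficial saline libraries, and at 0.159 to 0.180 in deep cbx and 0.160 to 0.210 in deep saline libraries. The ratio of Mfsd2a to Cldn5 was 0.252 to 0.290 in superficial cbx and 0.300 to 0.306 in superficial saline libraries, and 0.662 to 0.889 in deep cbx and 0.834 to 0.940 in deep saline libraries.

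The other carriers were higher in the superficial layer or did not pass. Slc7a5, which brings large neutral amino acids into the brain, was at 259, 234, 263 and 220.1 CPM in the superficial layer of cbx pools, against 166, 157, 180.3 and 188 CPM in the deep layer (log2 difference 0.50, SE 0.0674, adjusted p = 9.83e-06). In saline pools Slc7a5 averaged 281 ± 1.67 CPM in the superficial and 208 ± 5.33 CPM in the deep layer (SD, n = 3 each; log2 difference 0.43, SE 0.0777, adjusted p = 4.27e-04). The layers of Slc7a5 did not overlap. The differences of Slc2a1, the glucose carrier of the barrier, were smaller (0.31 in cbx and 0.32 in saline pools), and those of the efflux pump Abcb1a were 0.60 in cbx and 0.60 in saline pools. All 4 values passed. Abcg2, another efflux pump, was at 21.2, 20.8, 20.7 and 17.9 CPM in the superficial layer of cbx pools, against 14.5, 11.1, 12.2 and 12.4 CPM in the deep layer (log2 difference 0.68, SE 0.104, adjusted p = 4.09e-05). In saline pools the ranges of Abcg2 overlapped, at 15.2 to 19.6 CPM in the superficial and 12.9 to 15.8 CPM in the deep layer, and it did not pass (adjusted p = 0.123). Slco1c1, a carrier of thyroid hormone, passed in cbx pools (log2 difference 0.23, SE 0.0796, adjusted p = 0.0348) and not in saline pools (log2 difference 0.14, adjusted p = 0.363). Whether the layer difference of these 2 genes itself differed with treatment is given by the interaction at the end of the report.

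Of the 6 angiogenic genes, the same 4 were higher in the superficial layer of both treatments. Tie1 (ENSMUSG00000033191), the co-receptor of the angiopoietin receptor, was at 26.03, 35.1, 40.02 and 38.4 CPM in the superficial layer of cbx pools, against 14.9, 15.5, 17.9 and 20.9 CPM in the deep layer (log2 difference 1.02, SE 0.120, adjusted p = 2.49e-06). In saline pools Tie1 was at 45.04, 43.7 and 42.4 CPM in the superficial layer, against 21.9, 22.8 and 19.97 CPM in the deep layer (log2 difference 1.02, SE 0.137, adjusted p = 2.48e-05). The ranges did not overlap, although cbx superficial library 1 was far below the other 3 of its group. Tek, the angiopoietin receptor, was at 22.4, 25.9, 32.3 and 29.8 CPM in the superficial layer of cbx pools, against 9.70, 11.7, 12.5 and 14.8 CPM in the deep layer (log2 difference 1.19, SE 0.124, adjusted p = 4.25e-07). In saline pools Tek was at 27.8, 24.7 and 24.7 CPM in the superficial layer, against 14.8, 12.7 and 11.9 CPM in the deep layer (log2 difference 0.97, SE 0.143, adjusted p = 5.73e-05). Kdr, the main VEGF receptor of endothelial cells, gave 0.73 in cbx pools (adjusted p = 2.04e-04) and was at 86.02, 84.2 and 83.3 CPM in the superficial layer of saline pools, against 43.2, 46.01 and 47.6 CPM in the deep layer (log2 difference 0.89, SE 0.140, adjusted p = 2.35e-04). Eng, a co-receptor for TGF-beta ligands, was at 36.6, 41.3, 40.7 and 41.97 CPM in the superficial layer of cbx pools, against 21.98, 23.8, 24.9 and 32.3 CPM in the deep layer (log2 difference 0.64, SE 0.0952, adjusted p = 2.65e-05), and its saline value was 0.61. Each of these 4 was higher in every superficial library than in every deep one of its treatment. Flt1, a VEGF receptor that mostly acts as a decoy, did not pass in either treatment: its log2 differences were 0.03 (SE 0.146) in cbx and 0.05 (SE 0.168) in saline pools. Apln, a ligand made by sprouting tip cells, gave -0.30 in cbx pools (adjusted p = 0.0736) and 0.02 in saline pools (adjusted p = 0.951).

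The 3 transcription factors moved alike. Sox18, a Sox factor of endothelial cells, was at 16.4, 16.6, 14.9 and 12.8 CPM in the superficial layer of cbx pools, against 7.98, 7.94, 7.58 and 9.07 CPM in the deep layer (log2 difference 0.90, SE 0.119, adjusted p = 7.15e-06). In saline pools Sox18 was at 15.99, 17.9 and 15.8 CPM in the superficial layer, against 6.96, 7.46 and 10.2 CPM in the deep layer (log2 difference 1.01, SE 0.137, adjusted p = 2.05e-05). Sox17, a related factor that marks arteries, was at 7.48, 9.53, 7.25 and 6.93 CPM in the superficial layer of cbx pools, against 4.11, 3.85, 4.11 and 4.66 CPM in the deep layer (log2 difference 0.90, SE 0.122, adjusted p = 9.94e-06), and its saline value was 0.72. For both genes the 2 layers did not overlap. Erg, an ETS factor that maintains endothelial identity, was higher by 0.87 in cbx and 0.72 in saline pools on the log2 scale, and both values passed. Among the surface and secreted proteins, Emcn, a sialomucin of capillaries and veins, was higher by 1.08 in cbx and 1.37 in saline pools, and Vwf, the clotting factor carrier that is abundant in larger vessels, by 1.28 in cbx and 1.32 in saline pools. All 4 of these values passed, that of Vwf in saline pools not without saline pool 1 and cbx pool 4 (adjusted p = 0.0992). Plvap, which forms the diaphragms of fenestrae and caveolae and is low in mature barrier vessels, was lower by a small amount (log2 difference -0.30, SE 0.103, adjusted p = 0.0289 in cbx pools and log2 difference -0.38, SE 0.119, adjusted p = 0.0302 in saline pools), and its libraries overlapped in cbx pools, at 15.98 to 19.2 CPM in the superficial and 18.3 to 22.8 CPM in the deep layer. Ly6c1, a surface protein of endothelial cells, did not pass (log2 difference 0.11 in cbx and -0.15 in saline pools).

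The mural genes fell into 2 kinds. Vtn (ENSMUSG00000017344), an adhesive glycoprotein that pericytes secrete, was at 233, 194, 219 and 290.2 CPM in the superficial layer of cbx pools, against 23.4, 20.04, 25.8 and 30.8 CPM in the deep layer (log2 difference 3.23, SE 0.149, adjusted p = 8.24e-10). In saline pools Vtn was at 176, 154 and 142 CPM in the superficial layer, against 25.4, 32.3 and 28.9 CPM in the deep layer (log2 difference 2.45, SE 0.167, adjusted p = 1.13e-07). The 2 layers were several-fold apart in both treatments. Acta2, the smooth muscle actin of arterioles, was at 5.52, 8.82, 7.87 and 10.5 CPM in the superficial layer of cbx pools, against 1.38, 1.06, 0.933 and 1.12 CPM in the deep layer (log2 difference 2.85, SE 0.210, adjusted p = 3.40e-09). In saline pools Acta2 was at 7.17, 4.33 and 5.45 CPM in the superficial layer, against 1.18, 1.09 and 1.05 CPM in the deep layer (log2 difference 2.35, SE 0.247, adjusted p = 8.36e-07). Anpep (ENSMUSG00000039062), the aminopeptidase CD13 of pericytes, was at 8.88, 8.19, 12.2 and 14.7 CPM in the superficial layer of cbx pools, against 2.72, 2.29, 2.48 and 3.01 CPM in the deep layer (log2 difference 2.07, SE 0.192, adjusted p = 8.16e-08). In saline pools Anpep was at 6.91, 6.60 and 4.63 CPM in the superficial layer, against 3.05, 2.02 and 2.51 CPM in the deep layer (log2 difference 1.26, SE 0.226, adjusted p = 4.03e-04). These 3 genes did not overlap between layers. The other 6 mural genes differed little or not detectably. Rgs5, a regulator of G protein signalling that is abundant in pericytes, was higher by 0.33 in cbx and 0.27 in saline pools, and both passed, the saline value not with median-of-ratios scaling (adjusted p = 0.0515). Pdgfrb, the receptor through which PDGF-B recruits pericytes, was just called in cbx pools (0.50, adjusted p = 0.0479), where its ranges overlapped, and was not called in saline pools (0.13, adjusted p = 0.736). Abcc9 and Kcnj8 encode the subunits of the pericyte potassium channel that senses ATP. Abcc9 was lower in the superficial layer of cbx pools (log2 difference -0.40, SE 0.131, adjusted p = 0.0259) and gave 0.03 in saline pools, while Kcnj8 gave 0.03 in cbx and 0.14 in saline pools and did not pass. Notch3, the mural Notch receptor, gave 0.02 in cbx and 0.11 in saline pools, and Tagln, a smooth muscle protein at under 1 CPM, gave 0.50 and 0.20 in the same pools, and neither passed in either treatment.

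In cbx pools 19 genes were higher and 2 lower in every library of the superficial layer, which held for 16.7% and 13% of all genes. In saline pools the 20 higher and 3 lower genes were also those whose libraries did not overlap between layers, which held for 20.2% and 16.5% of all genes. Several of the smaller differences lay near the threshold, and their calls changed with the libraries included, while their directions did not. In cbx pools Slco1c1, Plvap, Pdgfrb and Abcc9 each lost their call without 1 or another of at least 4 of the 8 libraries left out in turn (adjusted p up to 0.214, 0.0806, 0.124 and 0.0864). In saline pools Slc2a1, Abcb1a, Plvap and Rgs5 did so for 4 or more of 6 libraries (up to 0.132, 0.146, 0.195 and 0.140), with a log2 difference of Abcb1a that stayed between 0.51 and 0.68 over all alternatives.

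**Figure D2:**
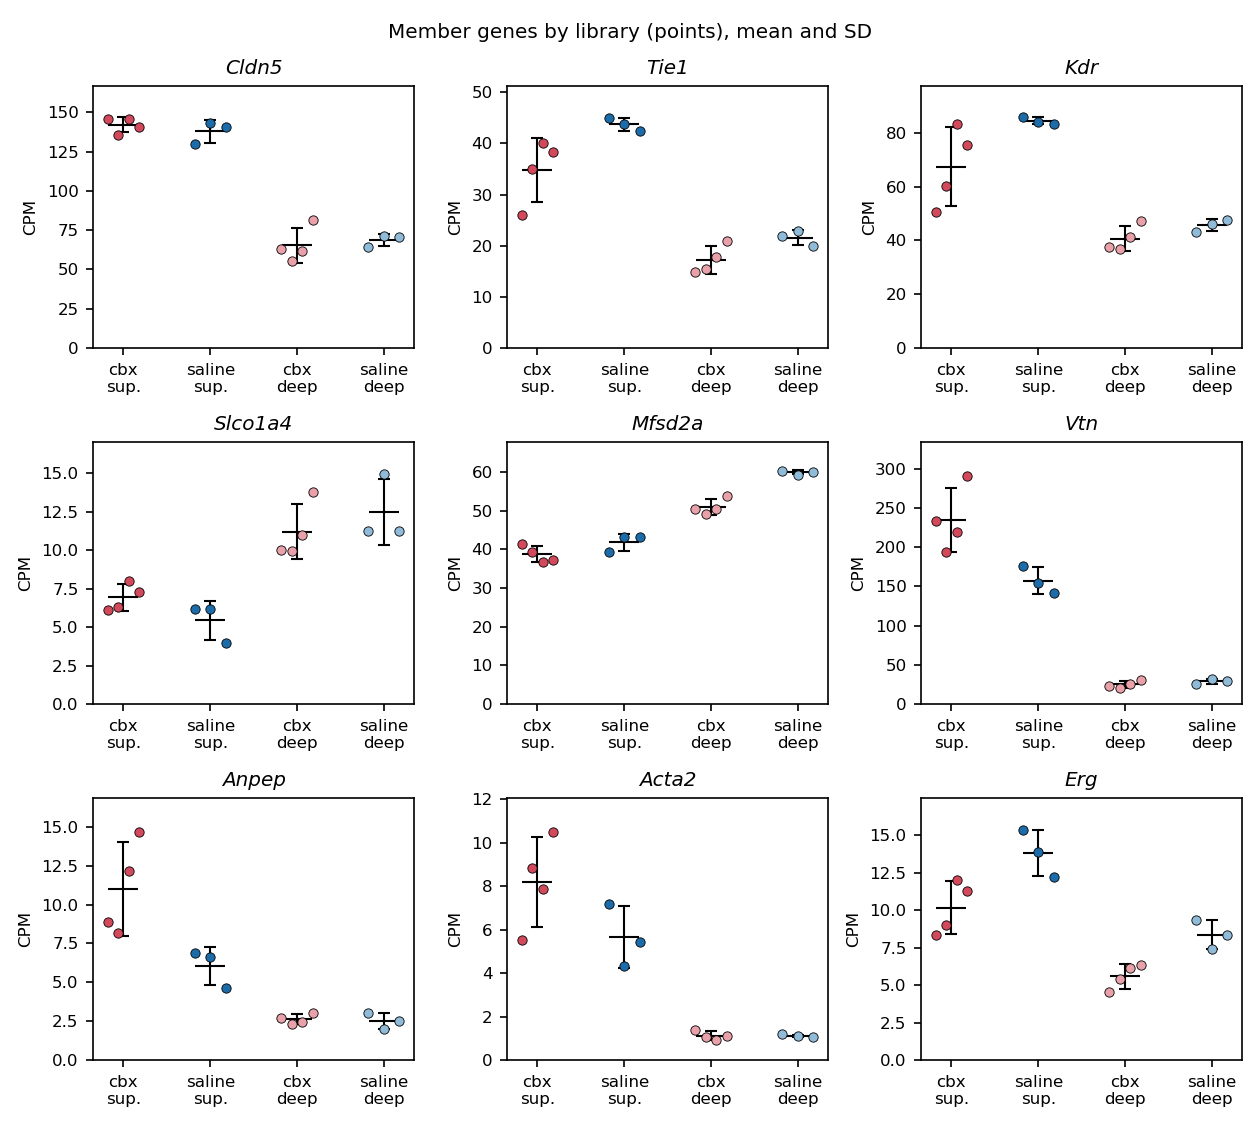
CPM of 9 vascular genes in each library (points) with the group mean and SD (bars), for cbx superficial (n = 4), saline superficial (n = 3), cbx deep (n = 4) and saline deep (n = 3) libraries. Cldn5, Tie1, Kdr, Vtn, Anpep, Acta2 and Erg have higher superficial than deep means and Slco1a4 and Mfsd2a lower ones, and Vtn and Anpep are higher in each cbx superficial library than in any saline superficial one.

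In each list of genes of the same pathways outside the 33, most log2 differences between the layers lay above 0 in both treatments. The counts given here and in the next paragraphs are of genes called, which were not always most of a list. Of all genes, 18.1% were called higher and 14.1% lower in cbx pools, and 9.67% higher and 8.73% lower in saline pools. Of 27 further angiogenic ligands and receptors, 15 were higher and 2 lower in cbx pools, and 14 higher and 1 lower in saline pools. In cbx pools the smallest p-values were those of Nrp2, a co-receptor for VEGF and semaphorins (log2 difference 1.58, SE 0.0837, adjusted p = 3.34e-11), the apelin receptor Aplnr (log2 difference 2.34, SE 0.120, adjusted p = 7.82e-11), the ephrin receptor of veins Ephb4 (1.28) and Angpt2, an angiopoietin that destabilises vessels (2.97). In saline pools Nrp2, Aplnr and Ephb4 led again (1.66, 2.27 and 1.13), followed by the endothelial cadherin Cdh5 (log2 difference 1.41, SE 0.159, adjusted p = 9.00e-06). Nrp2 is also expressed by neurons. The genes lower in cbx pools were the growth factors Vegfa (-0.31) and Pdgfb (-0.28), and that lower in saline pools was Pgf (-0.74), all 3 named after their values were seen.

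Of 15 genes of the Wnt signal that induces the barrier, 9 were higher and 2 lower in cbx pools, and 7 higher and 2 lower in saline pools. Axin2, a general target of Wnt signalling, was higher by 0.76 in cbx and 0.92 in saline pools. The forkhead factor Foxf2 was higher by 0.87 in cbx and 0.90 in saline pools. In cbx pools Sox7 and Foxq1 were also among the first 4 (1.18 and 1.04), and in saline pools Reck, a co-receptor for Wnt7 ligands (0.96). The lower genes were the ligands themselves: Wnt7b (log2 difference -0.46, SE 0.0802, adjusted p = 1.76e-04 in cbx pools, -0.59 in saline pools) and Wnt7a (-0.37 in cbx and -0.34 in saline pools). Of 21 other barrier junction, transporter and caveola genes, 14 were higher and 1, Cgn, lower in cbx pools (-1.03), and 11 were higher in saline pools. The metal carrier Slc39a8 (1.33 and 1.25), the caveola genes Cavin1 (1.75 and 1.29) and Cav1 (1.27 and 0.90) and the lactate carrier Slc16a1 (0.84 and 0.70) led in both, with the values of cbx and then of saline pools in brackets here and in the next paragraph.

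Of 10 genes of the vascular basement membrane, 7 were higher in cbx pools and 5 in saline pools, led by Nid2 (2.87 and 2.37) and including the collagen IV chains Col4a1 (1.54 and 1.36) and Col4a2 (1.05 and 0.95) and the laminin chain Lamb1 (0.89 and 0.96). Of 18 other pericyte and smooth muscle genes, 10 were higher and 1 lower in cbx pools, and 6 higher and 1 lower in saline pools. The transcription factors Tbx18 (3.98 and 2.92), Foxc1 (2.48 and 1.74) and Foxc2 (4.60 and 3.50) differed most, and they are known in meningeal cells as well as in mural cells. The other gene among those with the 4 smallest p-values was Heyl in cbx pools (0.63) and Mcam in saline pools (0.67), with smaller differences than that of Myh11 (1.47 in cbx and 0.99 in saline pools). The lower gene was Cspg4 in both (-0.68 and -0.64), which oligodendrocyte precursors also express. Foxc2 had low counts and did not pass by limma-voom in saline pools (adjusted p = 0.238).

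Markers of the meninges differed between layers far more than the vascular genes did. The summed level of 14 meningeal fibroblast markers was 1001 to 2044 CPM in superficial cbx and 754 to 1134 CPM in superficial saline libraries, and 51.9 to 67.4 CPM in deep cbx and 79.7 to 96.6 CPM in deep saline libraries. All 14 were higher in the superficial layer in both treatments, with median log2 differences of 4.72 in cbx and 3.48 in saline pools, and no marker was at 0 in any library. Of 11 microglia and macrophage markers, 4 were higher and 3 lower in the superficial layer of cbx pools, and 3 were higher and 7 lower in saline pools. Mrc1, Pf4 and Lyve1, which mark macrophages at the borders of the brain, were higher in both, by 3.54, 5.02 and 5.66 on the log2 scale in cbx pools and by 2.45, 4.51 and 4.29 in saline pools. Cx3cr1 and P2ry12, which are abundant in microglia, were lower in both, with log2 differences of -0.60 and -0.55 in cbx pools and of -0.98 and -0.99 in saline pools. These 2 genes do not stand for the whole list in cbx pools. There 7 of the 11 markers lay above 0 and 4 below 0 (median 0.07), while in saline pools 3 lay above and 8 below 0 (median -0.53). The 11 markers summed to 359 to 413 CPM in superficial cbx and 263 to 310 CPM in superficial saline libraries, and to 347 to 389 CPM in deep cbx and 379 to 418 CPM in deep saline libraries. Of 7 red blood cell markers, 6 were higher in the superficial layer of cbx pools (Hbb-bs by 1.18 and Hbb-bt by 1.11 on the log2 scale), and in saline pools all 7 lay above 0 with none called by edgeR (0.33 and 0.44 for the same genes, 2 of the 7 at an unadjusted p under 0.05, 1 called by DESeq2 and 0 by limma-voom). The 24 endothelial members summed to 956 to 1101 CPM in superficial cbx and 1075 to 1120 CPM in superficial saline libraries, and to 640 to 801 CPM in deep cbx and 782 to 805 CPM in deep saline libraries. The superficial layer lies under the pia, and the part that meningeal tissue in the dissection had in the differences of Vtn, Anpep, Acta2 and the other genes was not tested. Of 5 choroid plexus markers, 3 were higher in the superficial layer of both treatments (median log2 difference 1.42 in cbx and 1.60 in saline pools), namely Otx2, Clic6 and Kcnj13. The 5 markers summed to 179 to 240 CPM in superficial cbx and 193 to 207 CPM in superficial saline libraries, and to 58.5 to 62.9 CPM in deep cbx and 60.6 to 69.1 CPM in deep saline libraries. Most of it was Otx2, which midbrain cells also express, at 203 ± 26.3 CPM in superficial and 57.1 ± 1.37 CPM in deep cbx libraries (SD, n = 4 each), while Ttr, the most abundant choroid plexus transcript, was at 1.27 ± 0.534 CPM and 1.67 ± 0.997 CPM in the same libraries and did not pass. The part of these cells in the layer differences of the vascular genes was not tested.

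**Figure D3:**
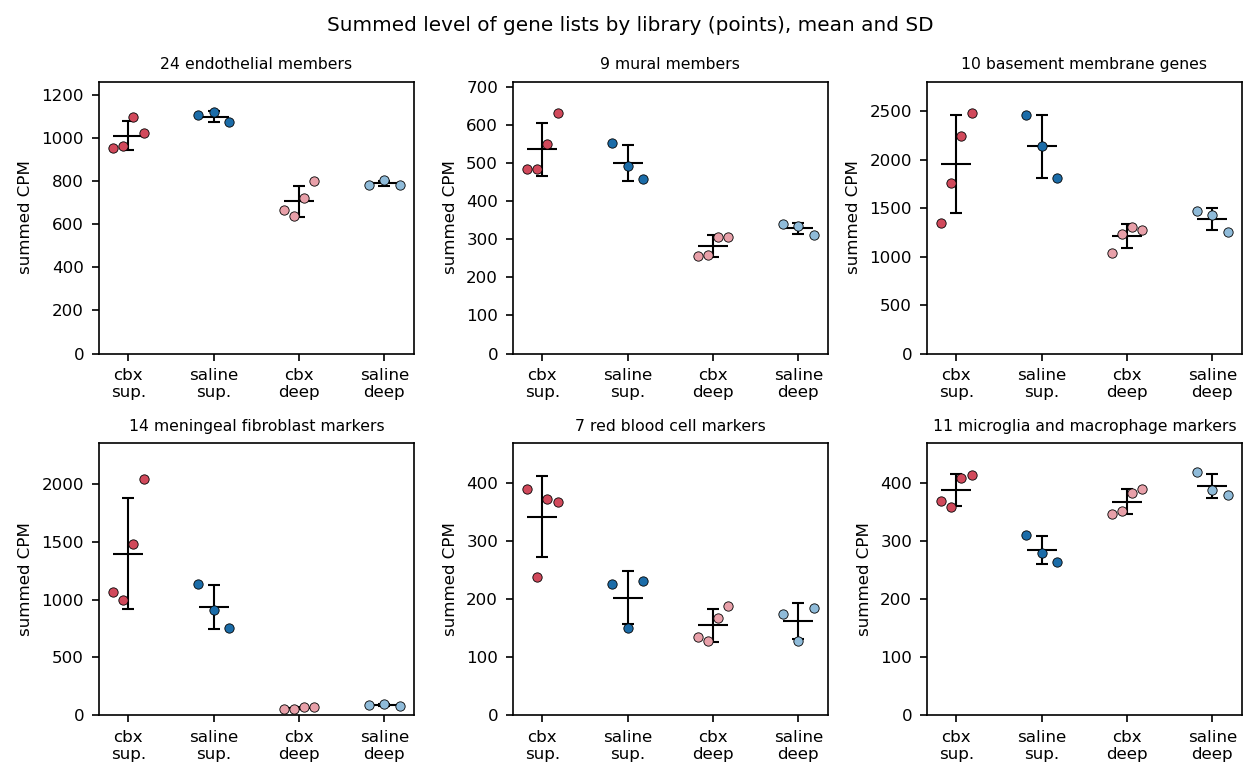
Summed CPM of 6 gene lists in each library (points) with group mean and SD (bars), for cbx superficial (n = 4), saline superficial (n = 3), cbx deep (n = 4) and saline deep (n = 3) libraries. The meningeal markers are 1001 to 2044 CPM in superficial cbx libraries and under 100 CPM in all deep ones, while the endothelial members span 640 to 1120 CPM over all libraries.

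The second comparison set cbx against saline in the superficial layer, the layer that receives most retinal axons. Only 2 of the 33 genes passed, Vtn and Anpep, both mural genes that were higher after cbx (6.06%, where 4.33% of all genes were called, 2.68% higher and 1.65% lower). Most other members lay slightly below 0: the log2 difference was negative for 23 of 33, against 48.5% of all genes, and the median was -0.11, beside 0.01 over all genes. Without adjustment 11 of 33 had p under 0.05, as had 20.6% of all genes. When cbx superficial library 1 was left out, the median of the members was -0.046, beside 0.002 over all genes. In that fit 20 of 33 were negative, against 49.6% of all genes. The saline superficial libraries used here are also those of the saline layer comparison, and the cbx ones those of the cbx layer comparison.

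Vtn was at 233, 194, 219 and 290.2 CPM in superficial cbx libraries, against 176, 154 and 142 CPM in superficial saline libraries, a 1.49-fold difference (log2 difference 0.57, SE 0.147, adjusted p = 0.0439). Anpep was at 8.88, 8.19, 12.2 and 14.7 CPM in superficial cbx libraries, against 6.91, 6.60 and 4.63 CPM in superficial saline libraries, a 1.82-fold difference (log2 difference 0.86, SE 0.198, adjusted p = 0.0196). Every cbx library was above every saline library for both genes, which was the case for 8.96% of all genes. Neither call was robust. Vtn did not pass when saline superficial libraries 1, 2 or 3 or cbx superficial libraries 1, 3 or 4 were left out in turn (adjusted p = 0.0687, 0.157, 0.153, 0.103, 0.0538 and 0.0619), and Anpep did not pass without saline superficial library 2 or 3 (0.0689 and 0.0975) or without both layers of saline pool 1 and cbx pool 4 (0.101). Markers of other cells were also higher in these cbx libraries. The 14 meningeal markers summed to 1062, 1001, 1483 and 2044 CPM in cbx libraries 1 to 4, against 1134, 911 and 754 CPM in saline libraries 1 to 3, with all 14 above 0 and 5 called. The 7 red blood cell markers summed to 238 to 390 CPM after cbx and 149 to 231 CPM after saline (1 called), and the 11 microglia and macrophage markers to 359 to 413 CPM and 263 to 310 CPM (6 called). Their part in the values of Vtn and Anpep was not tested.

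No endothelial member was called by edgeR (0 of 24, with 6 at an unadjusted p under 0.05, 1 called by DESeq2 and 0 by limma-voom). Cldn5 was at 146, 136, 146 and 141 CPM in superficial cbx libraries, against 129.5, 143 and 141 CPM in superficial saline libraries (log2 difference 0.04, SE 0.0930, adjusted p = 0.843), with overlapping groups. Slc2a1 gave -0.04 (SE 0.0907) and Eng -0.04 (SE 0.101). Kdr was at 50.7, 60.2, 83.2 and 75.4 CPM in superficial cbx libraries, against 86.02, 84.2 and 83.3 CPM in superficial saline libraries (log2 difference -0.33, SE 0.129, adjusted p = 0.162). Tie1 was at 26.03, 35.1, 40.02 and 38.4 CPM after cbx, against 45.04, 43.7 and 42.4 CPM after saline (log2 difference -0.32, SE 0.125, adjusted p = 0.146). Erg was at 8.36, 8.99, 11.998 and 11.3 CPM after cbx, against 15.3, 13.9 and 12.2 CPM after saline (log2 difference -0.44, SE 0.143, adjusted p = 0.0834). None of the 3 passed, although each cbx library was below each saline library, which also held for Pecam1 and Slc7a5 and for 8.29% of all genes. Cbx superficial library 1 was the lowest of its group for 18 of the 33 genes, where it was so for 33.4% of all genes. Among mural genes, Abcc9 came near the threshold (log2 difference -0.49, SE 0.140, adjusted p = 0.0541), at 12.1, 12.6, 16.5 and 17.9 CPM after cbx against 24.9, 17.5 and 19.99 CPM after saline, with a slight overlap. The other mural values were 0.54 for Acta2, -0.34 for Notch3, -0.23 for Kcnj8, -0.19 for Pdgfrb, -0.07 for Rgs5 and -0.08 for Tagln, and none passed. The summed mural level per summed endothelial level was 0.499 to 0.616 in superficial cbx and 0.426 to 0.499 in superficial saline libraries, the highest ratio being that of cbx library 4. The groups just overlapped, since saline library 1 (0.49929) was slightly above cbx library 3 (0.49927). Without Vtn the ratio was 0.263 to 0.333 in superficial cbx and 0.294 to 0.340 in superficial saline libraries, with a wider overlap.

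**Figure D4:**
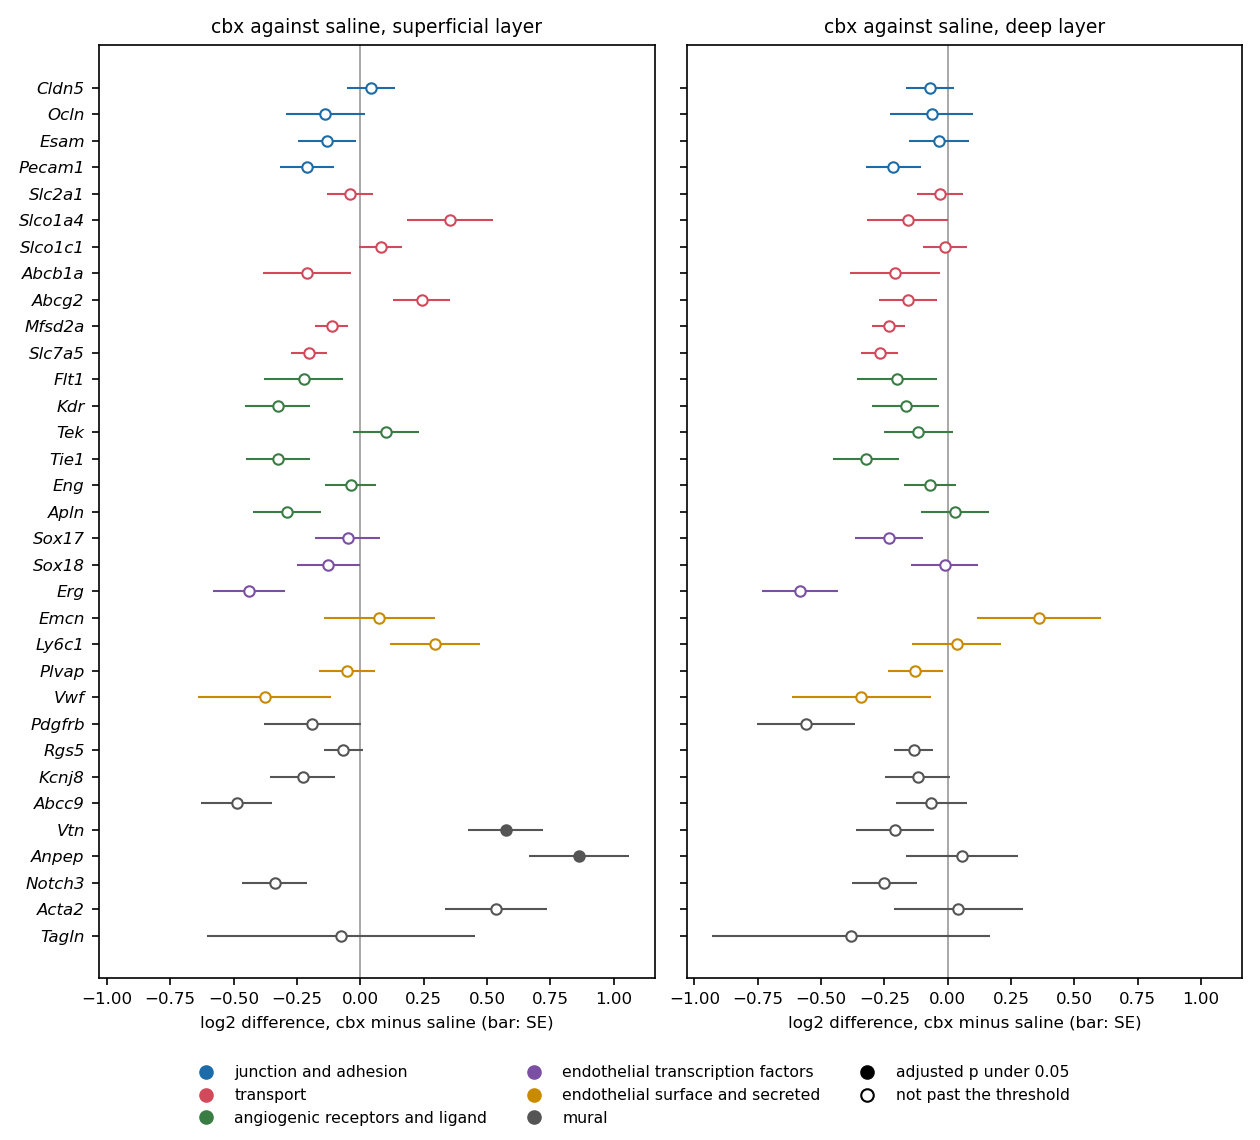
The log2 difference between cbx and saline for each of the 33 vascular genes, in the superficial layer on the left and the deep layer on the right, with bars for the standard error and filled points for an adjusted p under 0.05. Vtn and Anpep are the 2 filled points and lie right of 0 in the superficial layer, and 28 of 33 points lie left of 0 in the deep layer.

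Among the other genes of these pathways, 3 were called after cbx in the superficial layer. They were 1 of 27 angiogenic genes (3.7%), 1 of 21 other barrier genes (4.76%) and 1 of 18 other mural genes (5.56%). These shares were near the 4.33% of all genes called in this comparison. Angpt1, the mural ligand that activates Tek, averaged 8.45 ± 1.17 CPM after cbx (SD, n = 4) and 5.28 ± 0.928 CPM after saline (SD, n = 3; log2 difference 0.68, SE 0.181, adjusted p = 0.0400). Foxc1 was at 25.3 ± 4.51 CPM and 17.3 ± 0.868 CPM in the same groups (log2 difference 0.55, SE 0.137, adjusted p = 0.0296). Slc7a1, a carrier of cationic amino acids, was lower, at 113 ± 14.6 CPM after cbx and 146 ± 6.10 CPM after saline (log2 difference -0.37, SE 0.0810, adjusted p = 0.0162). Each of the 3 lost its call without saline superficial library 2 (adjusted p = 0.140, 0.117 and 0.0585) or 3 (0.154, 0.106 and 0.0513), Angpt1 also without cbx superficial library 3 or 4 (0.0766 and 0.0578), Foxc1 without saline superficial library 1 or cbx superficial library 4 (0.0696 and 0.0686), and Slc7a1 without saline superficial library 1 (0.0699). None of the 15 Wnt genes and none of the 10 basement membrane genes was called by edgeR, DESeq2 or limma-voom, with 4 and 0 of them at an unadjusted p under 0.05.

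The third comparison set cbx against saline in the deep layer, where no member passed by edgeR (0 of 33, where 1.83% of all genes were called, 1.06% higher and 0.777% lower). Values leaned below 0: 28 of 33 log2 differences were negative (84.8%), against 48.5% of all genes, with a median of -0.13 beside 0.01 over all genes. At an unadjusted p under 0.05 there were 5 of 33 members and 15.3% of all genes. DESeq2 called 4 members and 5.39% of the genes it gave an adjusted p, and limma-voom called 0 members and 1.57% of all genes. Erg came nearest, at 4.50, 5.38, 6.15 and 6.33 CPM in deep cbx libraries, against 9.31, 7.40 and 8.35 CPM in deep saline libraries (log2 difference -0.58, SE 0.1495, adjusted p = 0.0505). Pdgfrb was at 20.8, 25.5, 28.7 and 32.9 CPM after cbx, against 36.05, 40.2 and 42.8 CPM after saline (log2 difference -0.56, SE 0.193, adjusted p = 0.175). Slc7a5 was at 166, 157, 180.3 and 188 CPM after cbx, against 211, 202 and 212 CPM after saline (log2 difference -0.27, SE 0.0724, adjusted p = 0.0623). Mfsd2a was at 50.4, 49.1, 50.3 and 53.8 CPM after cbx, against 60.2, 59.2 and 60.02 CPM after saline (log2 difference -0.23, SE 0.0651, adjusted p = 0.0709). For these 4 genes and Sox17 each cbx library was below each saline library, which held for 8.05% of all genes. No member was higher in each cbx library than in each saline library, which held for 7.96% of all genes. DESeq2 called the same 4 genes, with adjusted p-values of 0.00917 for Erg, 0.0278 for Pdgfrb, 0.0143 for Slc7a5 and 0.0140 for Mfsd2a. Vtn and Anpep, which passed in the superficial layer, gave -0.21 (SE 0.153) and 0.06 (SE 0.220) here. Deep cbx library 4 was the highest of its group for 24 of the 33 genes, against 21.6% of all genes, and the 24 endothelial members summed to 801 CPM in it and to 640 to 721 CPM in the other 3. Meningeal markers summed to 51.9 to 67.4 CPM after cbx and 79.7 to 96.6 CPM after saline in the deep layer (12 of 14 below 0, 0 called by edgeR, 5 at an unadjusted p under 0.05), and their part in these values was not tested. Of the other pathway genes only Apcdd1, a Wnt inhibitor and target in barrier endothelium, was called (log2 difference -0.29, SE 0.0708, adjusted p = 0.0425). It was 1 of 15 Wnt genes (6.67%), beside the 1.83% of all genes called. Apcdd1 did not pass without any 1 of saline deep libraries 1, 2 and 3 (adjusted p = 0.135, 0.189 and 0.117) or cbx deep libraries 1, 2 and 3 (0.0990, 0.142 and 0.0822).

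Whether the response to cbx differed between the layers was tested as an interaction. No member passed by edgeR without a block for the pools (0 of 33, with 5 at an unadjusted p under 0.05, 1 called by DESeq2 and 0 by limma-voom). In that edgeR fit no other gene passed either (0% of 20330, with 1699 at an unadjusted p under 0.05), while DESeq2 called 60 genes (0.295%). The cbx difference of Vtn was larger in the superficial than in the deep layer by 0.78 on the log2 scale (SE 0.212, adjusted p = 0.335). With the pool as a block, since layers of a pool deviate together, the same value was 0.78 (SE 0.114, adjusted p = 0.00593). With that block edgeR called 61 of 20330 genes (0.3%), and Vtn was the only member among them. Anpep gave 0.81 (SE 0.294, adjusted p = 0.464), Slco1a4 0.51 (SE 0.233), Slco1c1 0.09 (SE 0.122, adjusted p = 0.871), Abcg2 0.40 (SE 0.159) and Abcc9 -0.42 (SE 0.199), and none of these passed. All 14 meningeal markers also had an interaction above 0, with a median of 1.137. None of the 14 was called by edgeR without the block, with 10 at an unadjusted p under 0.05, and DESeq2 called 2. The 11 microglia and macrophage markers were all above 0 too, with 0 called by that edgeR fit, 9 at an unadjusted p under 0.05 and 3 called by DESeq2. Per CPM of Cldn5, Vtn was at 1.43 to 2.06 in superficial cbx and 1.01 to 1.36 in superficial saline libraries, and at 0.363 to 0.418 in deep cbx and 0.396 to 0.455 in deep saline libraries.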

How the data were processed

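The authors deposited raw counts per Ensembl gene ID for 14 bulk RNA libraries of superior colliculus, each in a table of its own. The submitters' processing notes name STAR 2.7.9d, featureCounts from Subread 2.0.1, SAMtools 1.14 and FastQC 0.11.9, and the builds mm10 and GRCm39 with no role for either. Annotation and strand setting were not found in those notes. Groups and replicate numbers come from the sample labels and titles. The 33 genes, the other lists and the tests were chosen with earlier results of these data known.

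IDs were matched to symbols for 52083 of 55359 IDs, which held 98.74% of counts. The test was edgeR 4.0.16 (R 4.3.3) with filterByExpr by group (20330 genes kept), TMM factors, and a robust quasi-likelihood fit of 4 group means to all 14 libraries with 10 residual degrees of freedom. Benjamini-Hochberg adjustment ran over all genes kept, with a threshold of 0.05. The standard error is the log2 difference over the square root of F. The test of cbx against saline in the superficial layer was checked on simulated counts of independent libraries. These held no layer differences and no correlation between layers of a pool, so the check does not cover the layer or interaction tests. Exon lengths, overlaps and GC content come from GENCODE M21, promoters from RefSeq.

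Members past the threshold were to be given library by library, or the 12 with the smallest p-values where more passed. Of each further pathway list, up to 4 called genes with the smallest p-values were named. The alternatives comprised no filter, a filter of 1 CPM in 3 libraries, median-of-ratios factors, DESeq2 1.42.0, limma-voom 3.58.1, a fit of the groups compared alone, each library left out, both layers of saline pool 1 and cbx pool 4 left out, and a replicate block, which was the pool (treatment and number) for the layer comparisons and the interaction, and the replicate number within a layer for cbx against saline. An alternative without the length and GC trends of the libraries was chosen after seeing the data.

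Deviations from group means of same-numbered layers correlated at 0.182 to 0.394 in all 7 pools (15168 genes of at least 1 CPM; 0.005 to 0.180 over all 20330), so the numbers were taken to pair the layers of a pool. Between treatments the correlations were -0.276 to -0.0167, and these libraries share only a number.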

Additional observations from a re-analysis of the deposited data

Results flagged for a closer look

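In the groups of 4 cbx libraries, 1 library stood far from the other 3 for 3 of the 66 gene and group combinations examined, where chance gives about 1 in 20. Abcg2, an efflux pump, was at 17.9 CPM in cbx superficial library 4 and at 20.7 to 21.2 CPM in the other 3. Apln, a tip cell ligand, was at 17.2 CPM in cbx deep library 1 and at 14.2 to 14.5 CPM in the other 3. Ly6c1, which has near-identical paralogues, was at 16.6 CPM in cbx deep library 4 and at 10.3 to 11.2 CPM in the other 3. The causes were not tested.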

How the results depend on the processing

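None of the 836 alternative values of called members changed direction, and 763 stayed past the threshold. Most of these values belong to the layer comparisons. For cbx against saline in the superficial layer, Vtn stayed past the threshold in 7 of 16 alternatives and Anpep in 11 of 16. Of 704 alternative values of the named pathway genes 674 stayed past the threshold and 0 changed direction. For cbx against saline, Angpt1, Slc7a1 and Foxc1 in the superficial layer stayed past it in 9, 10 and 9 of 16 alternatives. Apcdd1 in the deep layer did so in 7 of 16. The layer counts held, with 23 to 28 members called in cbx pools (27 as reported) and 18 to 24 in saline pools (23). Over all genes 16.8% to 39.6% were called in cbx pools and 9.58% to 24.4% in saline pools. Leaving out single libraries gave 23 to 26 members called in cbx and 19 to 22 in saline pools. Besides the losses given with those results, Slc2a1 was lost in cbx pools without cbx deep library 2 (adjusted p = 0.0547). Apln, lower in the superficial layer of cbx pools, was gained without cbx superficial library 3 (0.0222), with median-of-ratios factors, with either other filter, by DESeq2, with the block and with the length and GC trend removed.

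The superficial cbx count of 2 was 8 with no filter (Kdr, Tie1, Erg, Vwf, Abcc9 and Notch3 lower in addition) and 4 by DESeq2 (Erg and Abcc9 in addition). It was 0 with the superficial groups alone, and 1 without saline pool 1 and cbx pool 4. Over all genes the share called in this comparison was 4.33% as reported, 3.82% with no filter and 8.5% by DESeq2. That share was 0.737% with the superficial groups alone and 0.435% without saline pool 1 and cbx pool 4. The superficial cbx count was 0 to 4 when single libraries were left out, and the share over all genes 0.666% to 4.49%. Kdr, Erg and Abcc9 were gained without cbx superficial library 3 (adjusted p = 0.0371, 0.0488 and 0.0487), Abcc9 without library 4 (0.0264) and Acta2 without library 1 (0.0456). With length and GC trends removed, Vtn was lost (0.0536) and Abcc9 gained (0.0246). The deep count of 0 was 1 with median-of-ratios factors (Erg), 3 with no filter, 1 with the filter of 1 CPM (Erg), 4 by DESeq2, 3 with the deep groups alone and 2 with length and GC trends removed, and stayed at 0 to 0 when single libraries were left out. Over all genes the deep share was 1.83% as reported, 1.82% with median-of-ratios factors, 1.48% with no filter and 2.71% with the filter of 1 CPM. It was 5.39% by DESeq2, 3.23% with the deep groups alone and 2.66% with the trends removed. Without single libraries the deep share was 0.199% to 1.34%. The interaction count of 0 was 1 with no filter and 1 by DESeq2, each time Vtn, and 0 to 0 when single libraries were left out. Over all genes the interaction share was 0.671% with no filter and 0.295% by DESeq2. The causes of these changes were not tested.

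With the replicate block, 28 members were called between layers in cbx pools and 24 in saline pools, 1 in the interaction (Vtn) and 0 in the deep cbx comparison. Over all genes the shares with the block were 37.4%, 22.9%, 0.3% and 0.0197% in the same order. Between cbx and saline the block was the replicate number, which does not pair those libraries. The superficial cbx count was 0 with that block, where 0.0295% of all genes were called. The log2 differences were 0.45 for Vtn (adjusted p = 0.117) and 0.69 for Anpep (0.172), against 0.57 and 0.86 as reported. With 3 or 4 libraries a group and 32004952 to 48776827 counts each, small differences of low genes such as Tagln are not detectable.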
